A study of Solenopsis invicta with 32 samples.

Results

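Ovaries of overwintered fire ant gynes were compared with ovaries of spring-reared gynes, as 16 of the 32 libraries of the series. The series asked which genes go with plasticity in queen weight, and it also holds the brains of the same gynes. Gynes are winged young queens of Solenopsis invicta. The 8 overwintered ovaries came from monogyne, SB/SB gynes labelled Overwintered, and the 8 spring-reared ovaries from monogyne, SB/SB gynes labelled Spring-reared. All gynes therefore shared the social form, in which a colony has a single egg-laying queen, and the genotype at the social supergene. Each ovary came from 1 gyne of its own colony, and 8.0 ng of its total RNA was amplified with Smart-seq2, a method for small amounts of polyadenylated RNA. The labels give no age, weight or mating state. Colony codes begin with a different prefix in each treatment, so what that prefix stands for and treatment cannot be told apart.

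An ant ovary is a bundle of ovarioles, tubes in which oocytes grow beside nurse cells that fill them with RNA and protein. Follicle cells surround each oocyte and lay down the eggshell late in its growth; in the fruit fly a few eggshell genes then reach very high transcript levels. In fire ants, winged virgin queens in a nest with a laying queen are held back from full egg production by her pheromone. In whole ovaries, fewer cells of a type and less RNA per cell cannot be told apart. The files do not pair gene identifiers with names: 0 of 16314 identifiers matched the reference gene table, so ovary markers could not be looked up, no sequence is shown and no function is given. Genes are described by level, direction and the ovaries that carry them, and 4 are given by identifier.

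Gene counts ranged from 11444437 to 23656547 in overwintered ovaries and from 11797043 to 16005289 in spring-reared ovaries. Levels are in CPM, counts scaled to a common library total, with TMM factors that offset differences in composition. Genes with any count numbered 11317.9 ± 146.5 per overwintered ovary, against 10962.5 ± 223.6 per spring-reared ovary (SD, n = 8 each; exact two-sided permutation p = 0.00124, adjusted p = 0.0087 over 7 library measures). With all libraries thinned to 11444437 counts, the difference in genes detected was 293.5 (exact permutation test, adjusted p = 0.0131). With at least 3 counts required, the difference was 205.1 and missed the threshold (exact permutation test, adjusted p = 0.113). Multimapping reads made up 5.60% to 6.86% of reads in overwintered and 5.38% to 5.93% in spring-reared ovaries (n = 8 each; exact permutation p = 0.0284, adjusted p = 0.0995).

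Spring-reared ovary 6 lay towards the overwintered ovaries, and overwintered ovary 1 lay towards the spring-reared ones over rises. To place each ovary, genes were called without it, and its level was set between the mean of the spring-reared ovaries (position 0) and of the overwintered ovaries (position 1). Over 784 called genes, for example, overwintered ovary 3 had a median position of 0.88. Overwintered ovaries lay between 0.69 and 1.05, with ovary 1 lowest and ovary 2 next at 0.75. Over rises alone overwintered ovary 1 stood at 0.54, against 0.76 to 1.03 for the other 7 of its group, but over falls it stood at 0.89, above overwintered ovaries 2, 3, 6 and 8. Spring-reared ovary 6 stood at 0.33 over rises and 0.38 over falls. Spring-reared ovary 6 had a median position of 0.36 over 993 genes, against -0.05 to 0.21 for the other 7 of its group. Over the 314 genes called at least 2-fold without it, spring-reared ovary 6 stood at 0.54 and the rest of its group at -0.11 to 0.15. Genes within overwintered ovary 1 scattered most, with quartiles of 0.07 and 1.29. Results that rest on these 2 ovaries are given with and without them.

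**Figure D1:**
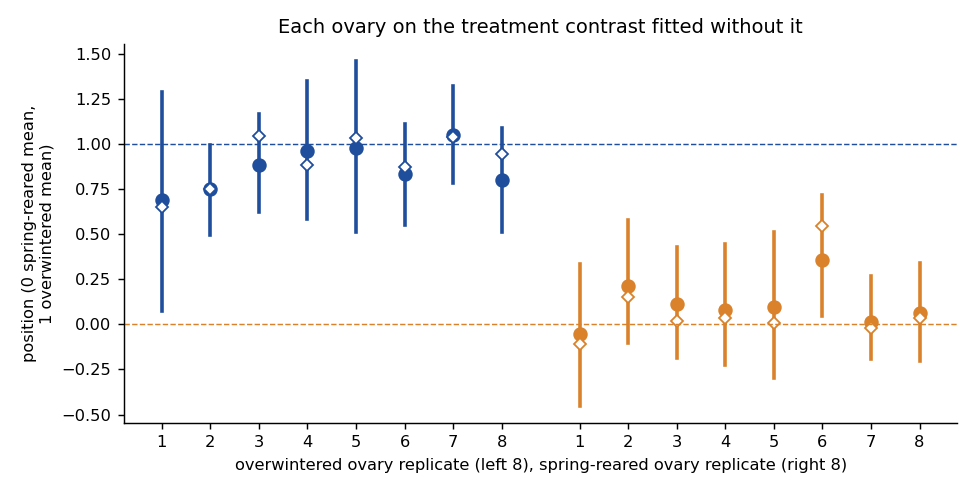
Position of each ovary on the treatment contrast fitted without it, for the 8 overwintered (left, blue) and 8 spring-reared ovaries (right, orange). Filled circles are medians over called genes with lines from the first to the third quartile, open diamonds are medians over genes called at least 2-fold, and dashed lines mark the 2 group means. Overwintered ovaries lie at 0.69 or above and spring-reared ovaries at 0.36 or below by the filled circles.

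About as many genes rose as fell in overwintered ovaries. Changes of at least 2-fold leaned to rises, mostly among genes of 1 to 10 CPM. Of 9361 genes tested, 496 rose (5.3%) and 494 fell (5.28%), 10.6% in all (edgeR quasi-likelihood test, Benjamini-Hochberg adjusted p under 0.05). At least 2-fold, 144 rose (1.54%) and 98 fell (1.05%). At least 4-fold, 50 rose and 19 fell, and at least 8-fold, 23 rose and 3 fell. The median log2 fold change was 0.60 among rises and -0.56 among falls, against 0.03 over all tested genes. Without overwintered ovary 1 and spring-reared ovary 6, a choice made after seeing the data, 591 genes rose and 591 fell, 190 and 129 of them at least 2-fold.

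Among changes of at least 2-fold, low genes held most of the rises but not most of the falls. Of 2337 genes with a mean of 1 to 10 CPM, 120 rose and 88 fell, and 90 of these rises and 48 of these falls were at least 2-fold. Of 4155 genes of 10 to 100 CPM, 214 rose and 259 fell. At least 2-fold, 38 of these rose and 40 fell. Of 2680 genes of 100 CPM or more, 159 rose and 146 fell, with median log2 fold changes of 0.34 and -0.40, so most changes of abundant genes were small. Only 13 of these rises and 9 of these falls reached 2-fold.

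**Figure D2:**
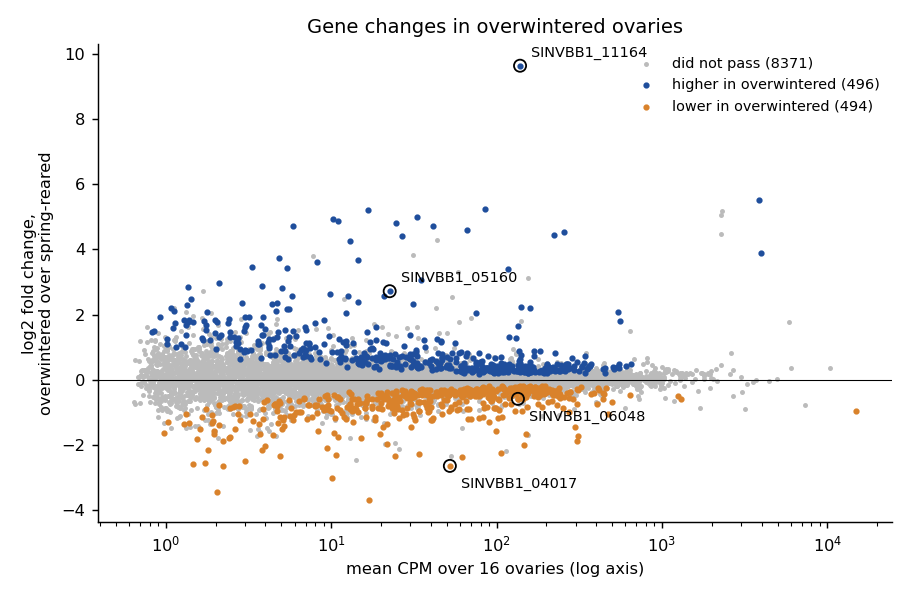
Log2 fold change of overwintered over spring-reared ovaries (y axis) against mean CPM over 16 ovaries (x axis, log scale) for 9361 genes. Blue points rose (496), orange points fell (494), grey points did not pass the edgeR threshold, and circles mark the 4 genes given by identifier. The highest point is SINVBB1_11164, at a log2 fold change of 9.63.

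Few genes separated the treatments in every gyne. In 95 of the 9361 tested genes (1.01%), every overwintered ovary lay above every spring-reared ovary, and 94 of these were called. In 81 genes (0.865%), every overwintered ovary lay below every spring-reared ovary, and all 81 were called. Without overwintered ovary 1 the called genes above numbered 164 of 9415 tested, and without spring-reared ovary 6 they numbered 146 of 9439. Without both ovaries, 226 called genes of 9376 tested lay fully above and 160 fully below. Fewer ovaries make such separation easier by construction, and these 2 lay nearest the other group over all called genes. Over falls alone overwintered ovary 1 was not the nearest of its group. Leaving out any 1 ovary gave 96 to 164 called genes fully above and 84 to 121 fully below.

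SINVBB1_05160 was the rise with the lowest p among genes of at least 5 CPM. Its level was 23.3 CPM at the lowest, 37.0 at the median and 54.8 at the highest in overwintered ovaries, against 3.57, 5.96 and 8.24 CPM in spring-reared ovaries. Levels spanned 2.35-fold among overwintered ovaries and 2.30-fold among spring-reared ones, and the lowest overwintered ovary lay 2.83-fold above the highest spring-reared one. Means were 39.2 ± 10.8 CPM for overwintered ovaries, against 5.96 ± 1.45 CPM for spring-reared ones (SD, n = 8 each; log2 fold change 2.72, SE 0.19, edgeR adjusted p = 3.5e-07). In the brains of the same gynes SINVBB1_05160 was far more abundant, at 988.1 ± 91.5 CPM in overwintered brains, against 921.5 ± 198.7 CPM in spring-reared brains (SD, n = 8 each). The 2 organs were scaled apart.

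SINVBB1_11164 had the largest fold change among called genes of at least 5 CPM. It ranged from 11.2 to 1033 CPM around a median of 152.5 in overwintered ovaries, against 0 to 1.56 CPM around a median of 0.041 in spring-reared ovaries. The groups did not overlap, yet overwintered ovaries spanned 92.3-fold, with ovary 5 highest and ovaries 1 and 8 lowest. SINVBB1_11164 had 31785 counts over 8 overwintered ovaries and 38 over 8 spring-reared ovaries, 4 of which held 0. The log2 fold change was 9.63 (SE 1.2, edgeR adjusted p = 3.3e-04), and 8.92 without overwintered ovary 5 and 10.58 without spring-reared ovary 6. The call was lost in the 3 limma voom fits without sample weights, including those with quantile or cyclic loess normalization (limma adjusted p = 0.059, 0.0623 and 0.0687). In brain SINVBB1_11164 was near 0, with 2 counts over overwintered and 12 over spring-reared libraries.

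The fall with the lowest p was small and even across gynes. SINVBB1_06048 stood at 94.5, 108.1 and 117.3 CPM (lowest, median and highest) in overwintered ovaries, against 145.2, 157.9 and 179.9 CPM in spring-reared ovaries. The highest overwintered ovary thus lay below the lowest spring-reared one, at means of 107.7 ± 6.94 CPM in overwintered ovaries, against 161.5 ± 12.02 CPM in spring-reared ones (SD, n = 8 each; log2 fold change -0.58, SE 0.06, edgeR adjusted p = 4.0e-05). Tested against a minimum fold of 1.5, SINVBB1_06048 did not pass (edgeR glmTreat). In brain its means were 262.9 ± 28.9 CPM in overwintered gynes, against 422.0 ± 106.8 CPM in spring-reared gynes.

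SINVBB1_04017 had the largest fall among genes whose groups did not overlap. It stood at 4.80, 14.4 and 25.1 CPM in overwintered ovaries and at 41.6, 77.1 and 191.5 CPM in spring-reared ovaries (lowest, median and highest). Overwintered ovary 5 was lowest of all, and spring-reared ovary 1 highest. Its means were 14.4 ± 6.70 CPM over overwintered ovaries, against 89.9 ± 52.1 CPM over spring-reared ones (SD, n = 8 each; log2 fold change -2.64, SE 0.38, edgeR adjusted p = 5.7e-04). Leaving out spring-reared ovary 1 gave a log2 fold change of -2.38. In brain SINVBB1_04017 averaged 15.8 ± 5.29 CPM in overwintered gynes, against 38.2 ± 20.9 CPM in spring-reared gynes.

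**Figure D3:**
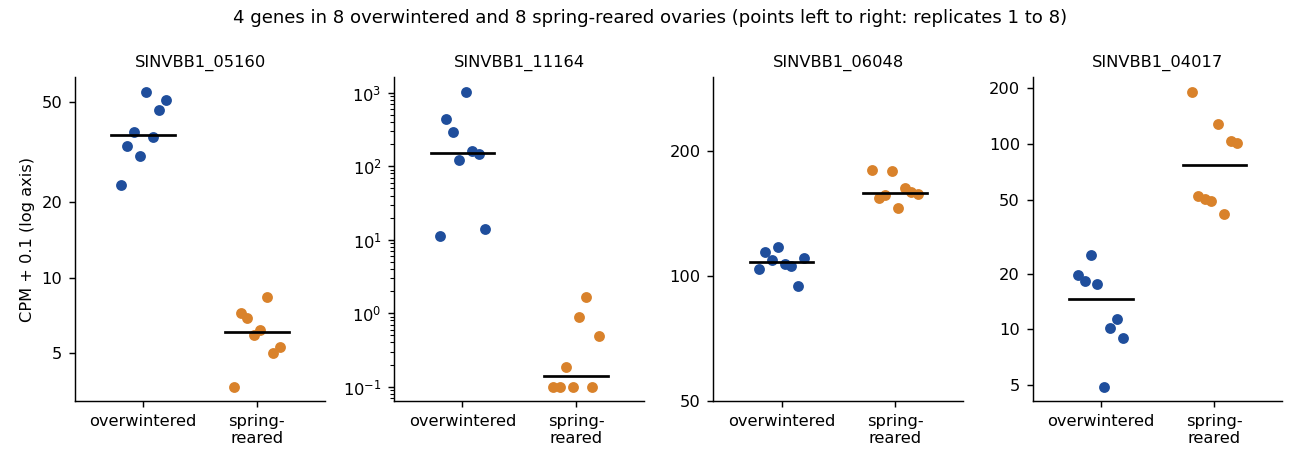
CPM plus 0.1 (log axis) of the 4 genes given by identifier in each of the 8 overwintered (left, blue) and 8 spring-reared ovaries (right, orange), with replicates 1 to 8 from left to right in each group and bars at the medians. The groups do not overlap in any of the 4 panels, and SINVBB1_11164 spans 11.2 to 1033 CPM among overwintered ovaries.

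The 12 largest rises with groups that did not overlap, of 77 such called genes of at least 5 CPM, were a mixed set. Their log2 fold changes ran from 1.52 to 9.63 (edgeR adjusted p from 3.5e-07 to 0.00845). The second held 2.83 to 25.9 CPM in overwintered ovaries and at most 2.15 CPM in spring-reared ovaries, while the tenth held 75.4 to 148.0 CPM in overwintered ovaries, against 14.8 to 59.1 CPM in spring-reared ones. In 6 of the 12 the highest spring-reared level was in ovary 6. Brain levels of the 12 averaged between 0 and 954.8 CPM: 4 of them lay under 1 CPM in brain, and 6 were more abundant in brain than in ovary.

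The eighth rise resembled SINVBB1_05160 in level. It held 14.1 to 34.2 CPM in overwintered ovaries, against 1.90 to 9.80 CPM in spring-reared ones, and a mean of 816.05 CPM in brain (log2 fold change 2.39, SE 0.27, edgeR adjusted p = 8.1e-05). The seventh and ninth rises had no brain counts at all, in either treatment. The seventh held 8.28 to 37.9 CPM in overwintered ovaries, against 1.01 to 7.76 CPM in spring-reared ones, and the ninth 3.598 to 12.9 CPM, against 0.745 to 3.02 CPM. Of the 12 rises, 5 are in the authors' deposited list, and 3 lost their call in at least 1 alternative fit.

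The 12 largest falls with groups that did not overlap, of 74 such genes, were highest in the same few spring-reared ovaries. Their log2 fold changes ran from -2.64 to -1.24 (edgeR adjusted p from 1.2e-04 to 0.00846). Spring-reared ovary 1 held the highest level of 8 of the 12, and spring-reared ovary 5 that of 2. Overwintered ovary 5 held the lowest level of 8 of the 12, and was lowest of its group in 20.3% of all tested genes. For example, the third fall reached 418.4 CPM in spring-reared ovary 1 around a median of 121.1 CPM, against 12.9 to 60.3 CPM in overwintered ovaries. In brain, 8 of the 12 were more abundant than in ovary, and the fifth averaged 838.9 CPM there. Brain means of the first to the ninth were lower in overwintered gynes, for example 585.7 against 1092.2 CPM for the fifth. Those of the tenth and eleventh were higher in overwintered gynes, and that of the twelfth was near equal. No brain difference was tested. The eleventh was near absent from brain, with 8.28 to 15.2 CPM in overwintered ovaries, against 20.5 to 35.0 CPM in spring-reared ones, and a mean of 0.142 CPM in brain. All 12 are in the authors' deposited list, and 5 lost their call in at least 1 alternative fit.

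**Figure D4:**
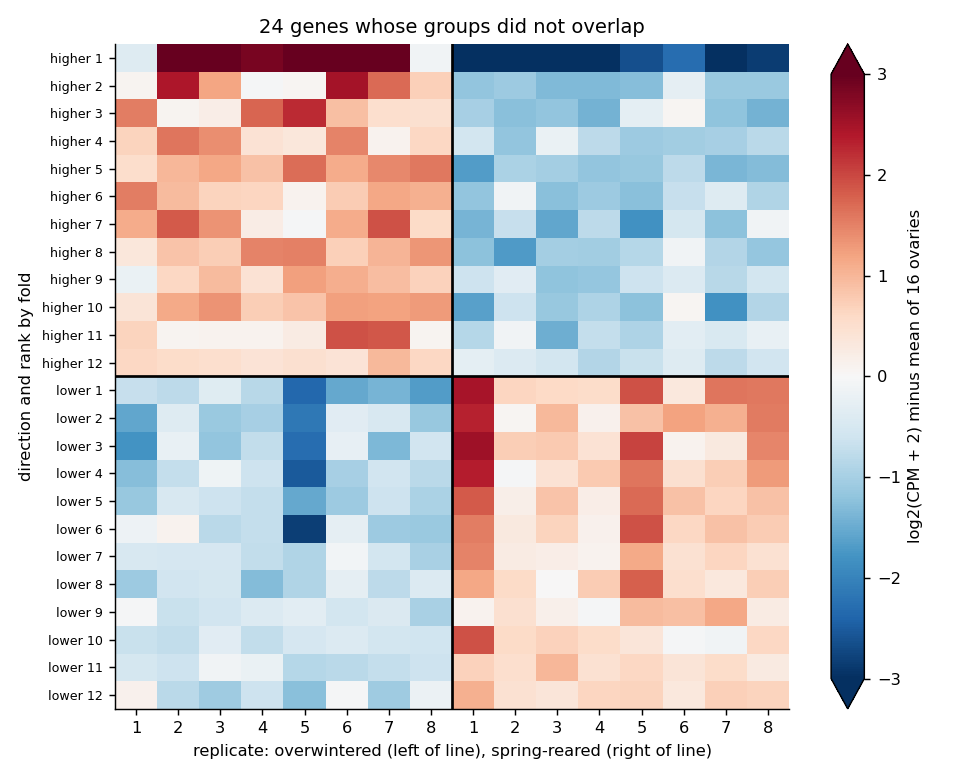
Log2(CPM + 2) minus the mean of the 16 ovaries for the 12 largest rises (top) and 12 largest falls (bottom) among called genes whose groups did not overlap, ranked by fold, in overwintered ovaries 1 to 8 (left of the line) and spring-reared ovaries 1 to 8 (right of it). Colours stop at 3 in either direction. Spring-reared ovary 1 is highest in 8 of the 12 falls, and overwintered ovary 5 lowest in 8.

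Among abundant transcripts the rises varied widely in size. The 13 genes of at least 100 CPM that rose at least 2-fold were listed after their values were seen and are ordered by mean CPM over the 16 ovaries; SINVBB1_11164 is the ninth. Their log2 fold changes ran from 1.28 to 9.63, and the groups did not overlap in 2 of the 13. The most abundant averaged 7439 ± 5525 CPM in overwintered ovaries, against 503.1 ± 818.9 CPM in spring-reared ones (SD, n = 8 each; edgeR adjusted p = 0.0105; log2 fold change 3.89, SE 0.87). Its overwintered levels ran from 482.8 CPM in ovary 1 to 17539.7 CPM in ovary 3, and its spring-reared levels were 2512 CPM in ovary 6 and 59.7 to 391.8 CPM in the other 7. The second had a median of 5771 CPM over overwintered ovaries, from 203.9 in ovary 3 and 308.0 in ovary 1 to 30165 CPM in ovary 5. In spring-reared ovaries it held 1253 CPM in ovary 6 and 5.13 to 19.7 CPM in the rest (edgeR adjusted p = 0.0431; log2 fold change 5.52, SE 1.64). Of 16 fits that each left out 1 library, 13 lost its call, with the highest edgeR adjusted p, 0.0748, without overwintered ovary 5. The tenth of the 13 lost its call in 11 of these fits, and the last in 1.

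Spring-reared ovary 6 carried the highest spring-reared level of 10 of the 13 genes, and overwintered ovary 1 the lowest overwintered level of 11. The genes counted are not independent cases. The seventh and eighth, for example, held 30.9 and 24.4 CPM in overwintered ovary 1 and 629.4 and 545.2 CPM in overwintered ovary 5. The fifth and sixth, at medians of 518.7 and 345.1 CPM in overwintered ovaries, held 150.4 and 136.6 CPM in spring-reared ovary 6 and at most 4.04 and 4.58 CPM in the other 7. With limma voom without sample weights 10 of the 13 were called; the ninth, the tenth and the last were not (limma adjusted p = 0.059, 0.0863 and 0.187). Without both ovaries all 13 were called and all 13 changes were larger, which leaving out the ovaries nearest the other group favours by construction. The log2 fold change of the most abundant gene was 5.29, and that of the second 9.88 (edgeR adjusted p = 8.0e-05 and 9.9e-05). Brain levels were under 1 CPM for 6 of the 13.

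Another 4 genes of at least 100 CPM were over 4-fold higher on average and did not pass (edgeR adjusted p from 0.0532 to 0.18). The first had a median of 3174 CPM in overwintered ovaries, from 156.7 in ovary 1 to 19257 CPM in ovary 5. It held 970.5 CPM in spring-reared ovary 6 and at most 7.03 CPM in the other 7 spring-reared ovaries (edgeR adjusted p = 0.092; log2 fold change 5.18, SE 1.86). In all 4 genes spring-reared ovary 6 was highest of its group, at 252.9 to 1422 CPM, and all 4 averaged under 1 CPM in brain. Without spring-reared ovary 6 the log2 fold change of the first was 11.01 and all 4 were past the threshold. Leaving out the highest spring-reared ovary enlarges these differences by construction, so the refit is a description and no test of a rise. In all, 15 genes were at least 4-fold higher without passing, against 50 that passed, and 4 were at least 4-fold lower without passing, against 19 that passed.

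**Figure D5:**
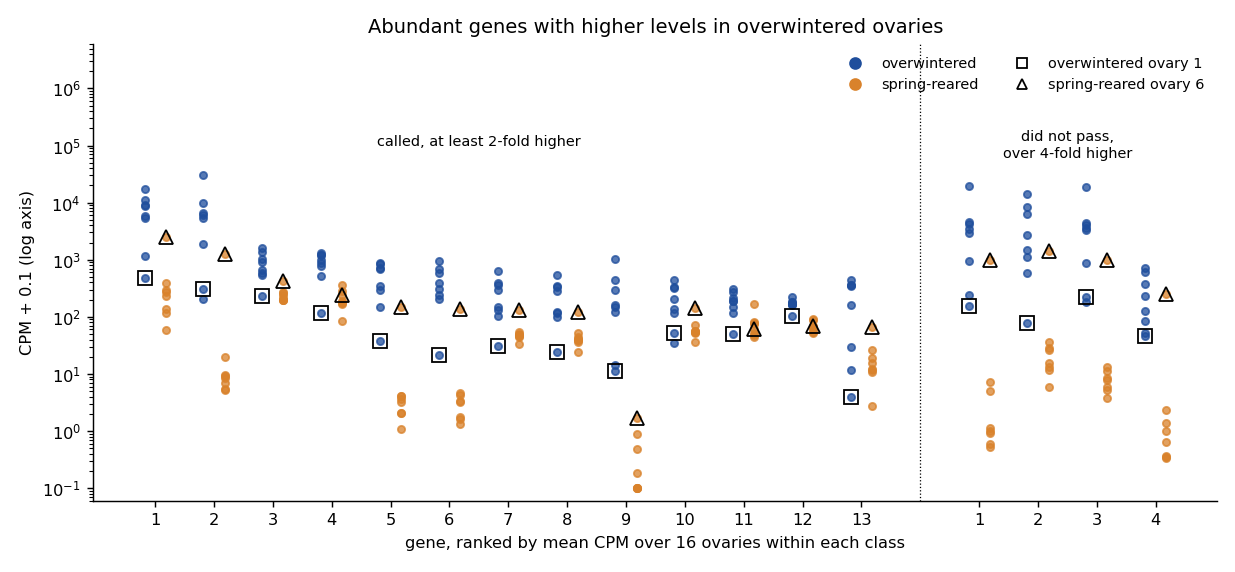
CPM plus 0.1 (log axis) of the 13 called genes of at least 100 CPM and 2-fold (left of the dotted line) and the 4 such genes over 4-fold higher that did not pass (right), in overwintered (blue, left of each pair) and spring-reared ovaries (orange). Squares mark overwintered ovary 1 and triangles spring-reared ovary 6. Spring-reared ovary 6 is highest of its group in 10 of 13 and in 4 of 4 genes.

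The abundant falls were fewer. The 9 genes of at least 100 CPM that fell at least 2-fold had log2 fold changes from -2.26 to -1.04, and their groups did not overlap in 6. Spring-reared ovary 1 was highest in 5 of the 9 and overwintered ovary 5 lowest in 5. In brain, 8 of the 9 were more abundant than in ovary, at means of 135.0 to 838.9 CPM over the 9. All 9 were called without overwintered ovary 1 and spring-reared ovary 6 and with limma voom without sample weights.

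Together the 144 genes that rose at least 2-fold summed to between 2839 CPM (ovary 1) and 51105 CPM (ovary 5) in overwintered ovaries, with a median of 20653. In spring-reared ovaries they summed to 6215 CPM in ovary 6 and to 1345 to 1671 CPM in the other 7. The 3 most abundant of them in each library made up 36.1% to 83.1% of the sum in overwintered ovaries, against 35.6% to 67.3% in spring-reared ovaries. The 98 genes that fell at least 2-fold summed to 1448 to 2352 CPM in overwintered ovaries and 3701 to 8042 CPM in spring-reared ovaries, with spring-reared ovary 1 highest. These sums are of genes chosen by the same contrast and carry no test.

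The larger changes were not spread evenly over gynes. Overwintered ovary 3, the deepest library, held the highest level for 41 of the 144 rises (28.5%), against 6.29% of all tested genes, and for 40 of the 144 genes so called after all libraries were thinned to 11444437 counts. Overwintered ovary 7 did so for 25 (17.4%, against 6.87%). Overwintered ovary 1 was lowest of its group in 50 of the 144 rises (34.7%, against 24.9% of all tested genes) and overwintered ovary 2 in 26 (18.1%, against 6.56%). Spring-reared ovary 6 was highest of its group in 58 (40.3%, against 11.4%). Of the 98 falls, spring-reared ovary 1 was highest in 37 (37.8%, against 18.2%) and spring-reared ovary 6 lowest of its group in 40 (40.8%, against 10.9%). Overwintered ovary 5 was lowest of its group in 35 of these falls (35.7%, against 20.3%). Without spring-reared ovary 1, 78 genes fell at least 2-fold.

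The median distance of an ovary from the other 7 of its group was 0.171 ± 0.055 log2 units in overwintered ovaries. In spring-reared ovaries it was 0.171 ± 0.033 (SD, n = 8 each, exact two-sided permutation p = 0.987, adjusted p = 0.987). Distances within a group depend on each other and were not recomputed for each regrouping. This p is therefore approximate for spread, and it does not show equal spread. The common biological coefficient of variation was 0.316 within overwintered and 0.295 within spring-reared ovaries. It was 0.313 within overwintered ovaries without ovary 5, and 0.272 within spring-reared ovaries without ovary 6. Overwintered ovary 1 lay farthest from its own group, at a distance of 0.272 log2 units. Without it the mean distance was 0.156 in overwintered and 0.171 in spring-reared ovaries. For the 98 larger falls the median SD was 0.35 log2 units in overwintered and 0.50 in spring-reared ovaries. For the 144 larger rises it was 0.41 in overwintered and 0.34 in spring-reared ovaries, against 0.24 and 0.22 over all tested genes. The constant added to CPM before taking logs shrinks SDs at low levels. Median levels of these rises were 1.4 to 2.9 CPM in spring-reared and 5.8 to 8.9 CPM in overwintered ovaries. Those of the falls were 3.4 to 5.4 CPM in overwintered and 6.8 to 18.6 CPM in spring-reared ovaries. A larger SD in the higher group is thus favoured by construction, so these SDs cannot show which treatment varied more.

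Brain levels of the called genes were compared by count only. Brain libraries were made from 1.6 ng of RNA, against 8.0 ng for ovaries, and the 2 organs were scaled apart. Reads naming no gene made up 32.0% to 47.2% in brains, against 16.5% to 21.2% in ovaries. The part of these differences in the shares below was not tested. Of the 496 rises, 84 (16.9%) averaged under 1 CPM in the 16 brains of the same gynes, against 35 of 494 falls (7.09%) and 7.97% of all tested genes. Among changes of at least 2-fold these shares were 36.1% of rises and 20.4% of falls. Of the 98 larger falls, 55 (56.1%) were more abundant in brain than in ovary, against 40.9% of all tested genes. Low genes are more common among the larger changes, and these shares were not compared with genes of similar level.

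The authors' deposited ovary table leaves out many of the larger changes. Every one of its 8031 genes exceeded 1.11 CPM in its lowest ovary, and no gene outside it did, so a gene near 0 in any gyne is not listed. Of the genes that changed at least 2-fold, 83 of 144 rises (57.6%) and 41 of 98 falls (41.8%) lie outside that list, against 14.2% of all tested genes. SINVBB1_11164 is among those outside, and SINVBB1_05160, SINVBB1_06048 and SINVBB1_04017 are listed.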

How the data were processed

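Gene counts of 16 ovary libraries, and of 16 brain libraries for levels only, were read from files the authors deposited, 1 per library. The submitters' processing notes name STAR 2.7.3a, Trim Galore 0.6.5 and edgeR. For genome build, annotation and strand setting, nothing is given in the sources used here. The second column was taken, since Smart-seq2 does not mark strand, and overlapping, antisense and near-identical genes could share reads. The 4 total lines naming no gene (16.5% to 21.2% of reads) were left out. The deposited CPM table of the ovary equals counts over the sum of its 8031 genes (relative tolerance 1e-06), and only its gene list was used.

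Counts were fitted in R 4.3.3 with edgeR 4.0.16 (TMM, filterByExpr, robust quasi-likelihood F-test, treatment alone, 8 against 8); SE is the absolute log2 fold change over the square root of F. Distances, positions and SDs used log2(CPM + 2). Library measures were compared by exact permutation tests in scipy 1.17.1. Identified genes were, in each direction, those of at least 5 CPM with the lowest p and with the largest fold without overlap. Gene lists and markers could not be run without names. Members, lists and tests were chosen with earlier results of these data known. A search for duplicate libraries found none (chi-square over its degrees of freedom at least 19.6 for any 2 ovaries of a group, which says nothing more of gynes). Alternatives used DESeq2 1.42.0, limma 3.58.1 and sva 3.50.0.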

Additional observations from a re-analysis of the deposited data

Results flagged for a closer look

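In 4 of 24 groups of 8 ovaries examined, 1 ovary stood far from the other 7. A chance rate of about 1 group in 20 would hold only for independent, normally distributed values. The groups share ovaries and SINVBB1_11164 was picked for its fold, so 4 of 24 cannot be set against that rate. Gene counts were 23656547 for overwintered ovary 3 and 11444437 to 15779666 for its group's other 7. Reads outside gene models were 8.97% for overwintered ovary 1 and 6.14% to 7.07% for the other 7. The share of counts in the 10 leading genes was 13.7% for overwintered ovary 5 and 4.96% to 7.67% for the other 7. The level of SINVBB1_11164 was 1033 CPM in overwintered ovary 5 and 11.2 to 438.5 CPM in the other 7. The part of these library measures in the gene results was not tested.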

How the results depend on the processing

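Counts of rises and falls (496 and 494) moved by over 1.5 times with an adjusted p of 0.01 (170 and 172), a minimum fold of 1.5 in glmTreat (44 and 23, all at least 2-fold, with 28 and 17 not overlapping) and the replicate number as a replicate block (260 and 209, with 52 falls at least 2-fold; of the abundant changes of at least 2-fold, 8 of 13 rises and 5 of 9 falls); rises numbered 773 with limma voom with sample quality weights. Same-numbered ovaries share only a number: their deviations correlated at -0.24 to 0.18, 1 of 8 pairs over 0.1, and 1 of 16 ovaries correlated best with its own number. DESeq2 called 738 rises and 673 falls. Changes of at least 2-fold numbered 74 rises and 56 falls at 0.01 and 63 and 58 among the authors' listed genes. Without 1 library at a time, rises ranged from 374 to 582, falls from 338 to 595, those of at least 2-fold from 120 to 189 and from 78 to 125, and called genes fully above from 96 to 164 and fully below from 84 to 121; without overwintered ovaries 1 and 5 and spring-reared ovary 6 the last 2 were 256 and 188, and without overwintered ovary 1 and spring-reared ovary 6, 226 and 160. The difference in genes detected was 205.1 with at least 3 counts, past no threshold, and the difference in spread ranged from -0.0143 to 0.0119 without 1 library. Over 2-fold genes alone, positions were 1.04 for overwintered ovary 3, 0.94 for overwintered ovary 8 and 0.54 for spring-reared ovary 6. Over all called rises, overwintered ovary 3 was highest in 12.7%. Under cuts of 0.5 and 2 CPM, 13.3% and 20.6% of rises lay below the cut in brain, and 4.86% of falls under 0.5 CPM. For these settings the cause was not tested. SINVBB1_05160 and SINVBB1_04017 kept their calls in all 33 alternatives. Few counts in the low group limit the size of the largest folds.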
